A study of Mus musculus with 8 samples.

Results

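The comparison described here is the time course of shikonin-treated mouse skin itself, 24 h after treatment against 4 h. It uses the 4 arrays labelled shikonin, 2 at 4 h and 2 at 24 h, of 8 arrays in the series. The other 4 carry skin that received the solvent acetone for the same times (acetone 4 h and acetone 24 h, 2 arrays each) and are given beside the shikonin values as the change in the control. All groups were abdominal skin of female C57BL/6JNarl mice, 6 to 8 weeks old. They received 100 μL of acetone on the skin, with shikonin at 10 μg/μL in the shikonin groups. Shikonin is a naphthoquinone pigment from the roots of Lithospermum erythrorhizon. No transgene or deletion is named in the labels. Skin was taken at each time from different mice, so time and animals cannot be told apart. The arrays were single-colour Mouse OneArray slides, each with Cy5-labelled RNA from 1 skin sample.

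Skin has an outer epidermis, in which basal keratinocytes divide and then harden into a lipid-sealed cornified layer, and a dermis with hair follicles, vessels, nerves, muscle and fat beneath. Hair follicles are built from their own keratins, in the shaft and in the inner root sheath that guides it. When cells sense foreign nucleic acid or tissue damage they can secrete type I interferon, which acts through its cell-surface receptor on a shared set of antiviral genes.

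The array has 29922 probes, of which 13853 have an intensity on every array, and 11550 of these name 1 gene each, 9987 genes in all. Values are log2 intensities. Any intensity under 203, the level at 5% of all values, was raised to it, so that 7.67 on the log2 scale is a floor, and intensities of 65000 or above (15.99) were treated as saturated. A fold is given as "at least" where the dimmer time had both of its arrays at the floor or the brighter time had a saturated array. The array medians lay between 1129 and 1130. Replicate arrays correlated at 0.986 (4 h) and 0.991 (24 h) across probes, and arrays of different times at 0.888 to 0.899. The skin carried the keratins of epidermis, Krt14 near saturation on all 4 shikonin arrays among them, and leukocyte, vessel, muscle and fat genes besides, as whole skin does.

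Between 4 h and 24 h, 5310 probes (38.3% of those tested) changed by limma with Benjamini-Hochberg adjustment and a threshold of 0.05, 2658 higher (19.2%) and 2652 lower (19.1%). By gene these were 1983 higher and 1993 lower of 9987. The counts of list members given below stand against the shares of 19.2% and 19.1%. The falls were the larger changes: 88 genes fell at least 8-fold and 20 rose by as much, and 34 fell at least 16-fold against 4 that rose. A criterion of at least 2-fold in all 4 pairings of a 24 h with a 4 h array, which uses no p-value, counted 747 probes higher (5.39%) and 927 lower (6.69%). In acetone-treated skin 4105 probes (29.6%) changed between the same times, and the time changes of the treatments correlated at -0.09 (Pearson) and -0.06 (Spearman) across probes, which are not independent replicates. The difference between the time changes passed for 5999 probes (43.3%), and for 3896 of the 5310 probes that changed in shikonin-treated skin (73.4%). The labels do not say whether replicate arrays came from separate mice. The paper describes duplicate samples on separate chips and a criterion met in 2 independent experiments, but does not tie arrays to animals. The p-values therefore measure only how far replicate arrays differed, which may be technical error. With either 24 h array left out, no probe passed (0 of 13853, with 4615 and 4697 at an unadjusted p under 0.05), and with either 4 h array left out 2630 and 2212 did, whereas a fit that pooled the spread of all 8 arrays called 4830 to 6002 under the same omissions.

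**Figure D1:**
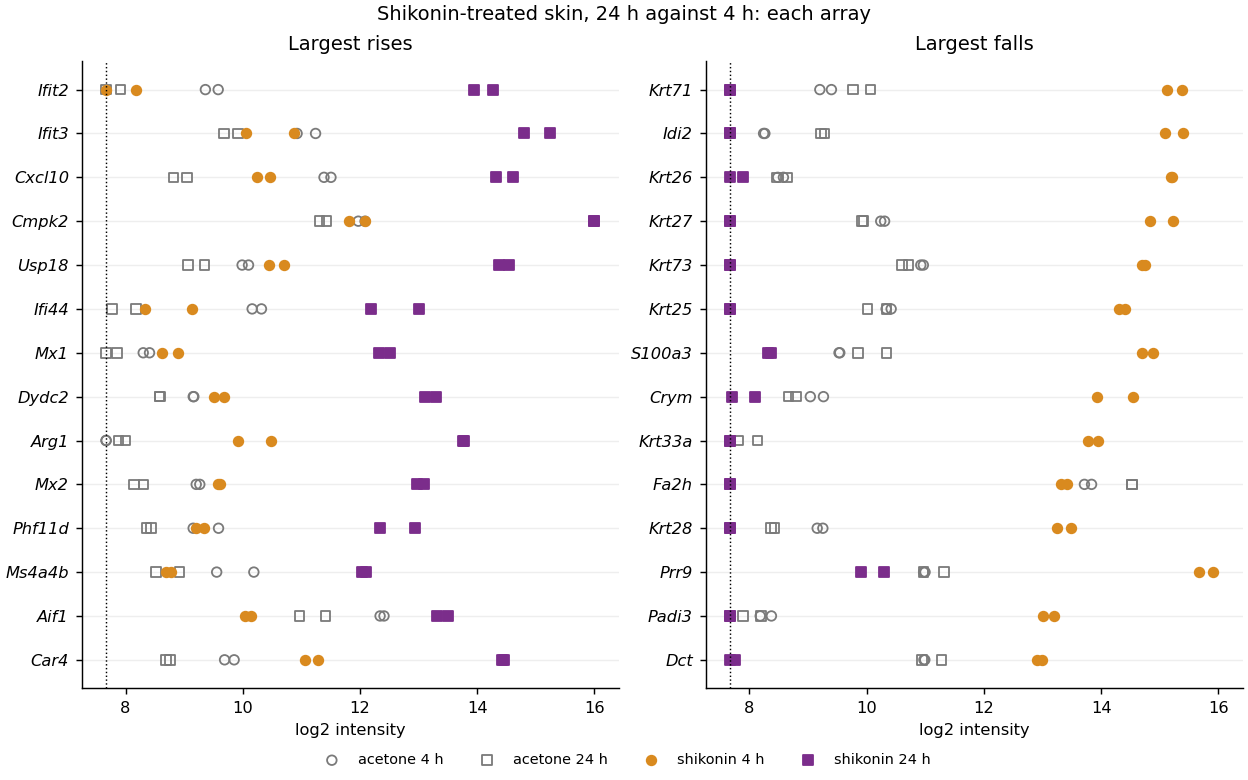
Log2 intensity (horizontal axis) on each array of the 14 genes that rose most and the 14 that fell most from 4 h to 24 h in shikonin-treated skin. Filled circles are shikonin 4 h, filled squares shikonin 24 h, open symbols acetone, and the dotted line is the floor at 7.67. The rising genes are led by Ifit2, and the 4 h values of the falling genes, except Fa2h, lie above the acetone values at both times.

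Genes induced by type I interferon led the rise. Of the 39 measured members of the list, 38 were higher at 24 h and none lower, beside 19.2% of all probes, with a median log2 change of 2.34 beside 0.03 over all probes. In acetone-treated skin the same list had a median of -0.58, with 26 members lower and 2 higher, and the difference of the time changes was positive and passed for all 39. The summed intensity of the list was 197330 and 201419 on the 4 h arrays and 724621 and 764849 on the 24 h arrays. It lay between 136933 and 205993 on the 4 acetone arrays, so that the 4 h shikonin arrays were inside the acetone range and the 24 h arrays far above it.

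Ifit2, which binds foreign RNA and blocks its translation, had log2 intensities of 8.18 and 7.67 (the floor) at 4 h and 13.94 and 14.26 at 24 h, a rise of 6.18 (SE 0.24, adjusted p = 0.00227). Its acetone arrays went the other way, from 9.58 and 9.36 to 7.67 and 7.91. Ifit3, of the same family, rose from 10.87 and 10.05 to 14.79 and 15.24 (23.6-fold, adjusted p = 0.00365). In both genes every 24 h array exceeded every other array of the series. Mx1 and Mx2, dynamin-like GTPases that block viral replication, rose by 3.66 and 3.43 on the log2 scale. Usp18, the protease that removes ISG15 from proteins and damps the interferon receptor, rose from 10.71 and 10.44 to 14.54 and 14.37. Cmpk2, a mitochondrial nucleotide kinase whose gene neighbours Rsad2, was saturated on both 24 h arrays and was at least 16.5-fold higher. Rsad2 (viperin), which makes a chain-terminating nucleotide, went from 12.90 and 13.22 to 15.94 and 15.92, and Isg15, the ubiquitin-like modifier, from 13.42 and 13.34 to 15.53 and 15.58.

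The sensors and factors of the pathway moved as well. The RNA sensors Ifih1 (MDA5), Ddx58 (RIG-I) and Dhx58 (LGP2) rose by 2.37, 1.95 and 2.41 on the log2 scale. The factors Irf7 and Stat2 rose by 2.64 and 2.39, while Irf9, which binds Stat2, was at 10.19 and 9.59 at 4 h and 10.43 and 10.87 at 24 h and did not pass (adjusted p = 0.113). Irf9 was the only member of the 39 that missed the threshold. Ifitm3, which restricts virus entry, was saturated on both 24 h arrays and was at least 1.18-fold higher. Ifi44, with 9.13 and 8.33 at 4 h and 12.20 and 13.01 at 24 h, had the widest spread between replicates of the leading genes (SE 0.42). Phf11d, another interferon-induced gene, rose 10.3-fold.

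Promoter sequences of RefSeq (build GRCm38.p6, from 250 bases before a gene's start to 50 after) were matched by symbol to 26 of the 38 members that rose. The core of the interferon-stimulated response element, searched as GAAANNGAA on both strands, was present in 14 of them (53.8%), beside 9.76% of all 27025 genes in the table and 8.70% of the measured genes. A gene counts where any of its promoters holds the letters, and 8.56% of the 32851 single promoters did. The 80 bases around the first match are given for the 5 members with the largest rise whose promoter holds it, because these are the letters that the interferon-activated complex is known to read. They are written on the gene's strand, 5′ to 3′, with the matches in capitals (all lie on the opposite strand, so that the reverse complement of the letters searched is seen).
Ifit3, chr19:34583338-34583417, plus strand: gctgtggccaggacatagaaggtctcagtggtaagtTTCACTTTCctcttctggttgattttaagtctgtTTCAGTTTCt
Ifi44, chr3:151749870-151749949, minus strand: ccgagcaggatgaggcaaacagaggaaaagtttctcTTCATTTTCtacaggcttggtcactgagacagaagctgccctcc
Ifi44l, chr3:151762861-151762940, minus strand: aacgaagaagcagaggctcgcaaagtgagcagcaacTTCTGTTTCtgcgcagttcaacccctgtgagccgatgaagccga
Rsad2, chr12:26456528-26456607, minus strand: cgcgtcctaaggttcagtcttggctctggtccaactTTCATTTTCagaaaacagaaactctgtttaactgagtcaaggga
Stat2, chr10:128270248-128270327, plus strand: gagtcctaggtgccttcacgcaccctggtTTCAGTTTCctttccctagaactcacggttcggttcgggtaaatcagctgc

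The match is a description of the letters and not a measured binding site. In the Ifit3 promoter there were 3 matches, 2 of them in the window shown. These 5 genes rose by 4.56 (Ifit3), 3.87 (Ifi44), 3.06 (Ifi44l), 2.87 (Rsad2) and 2.39 (Stat2) on the log2 scale.

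The related list of interferon-induced GTPases and genes of MHC class I presentation had 16 of 23 members higher and none lower (median 1.20, acetone -0.53). The guanylate-binding proteins, which attack vacuoles of intracellular microbes, led it: Gbp5 rose from 8.07 and 8.55 to 11.41 and 11.25, and Gbp2 from 11.68 and 11.75 to 14.22 and 14.41. Gbp2 was at 11.89 to 13.02 on the acetone arrays, above its 4 h shikonin arrays. The summed intensity of the list was 111261 and 114489 at 4 h, below the acetone range of 118328 to 194690. At 24 h it was 225144 and 232812, above that range. The immunoproteasome subunit Psmb9 and the peptide transporter Tap1 rose by 1.83 and 1.58. The MHC class I heavy chain H2-D1 stayed between 14.65 and 14.81 on all 4 arrays (adjusted p = 0.17), and its light chain B2m, at 12.98 and 11.98 against 13.63 and 14.12, did not pass (adjusted p = 0.0629). Of the 14 members that rose and had a promoter in the table, 7 held the same motif, as did 3 of 5 that did not pass.

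**Figure D2:**
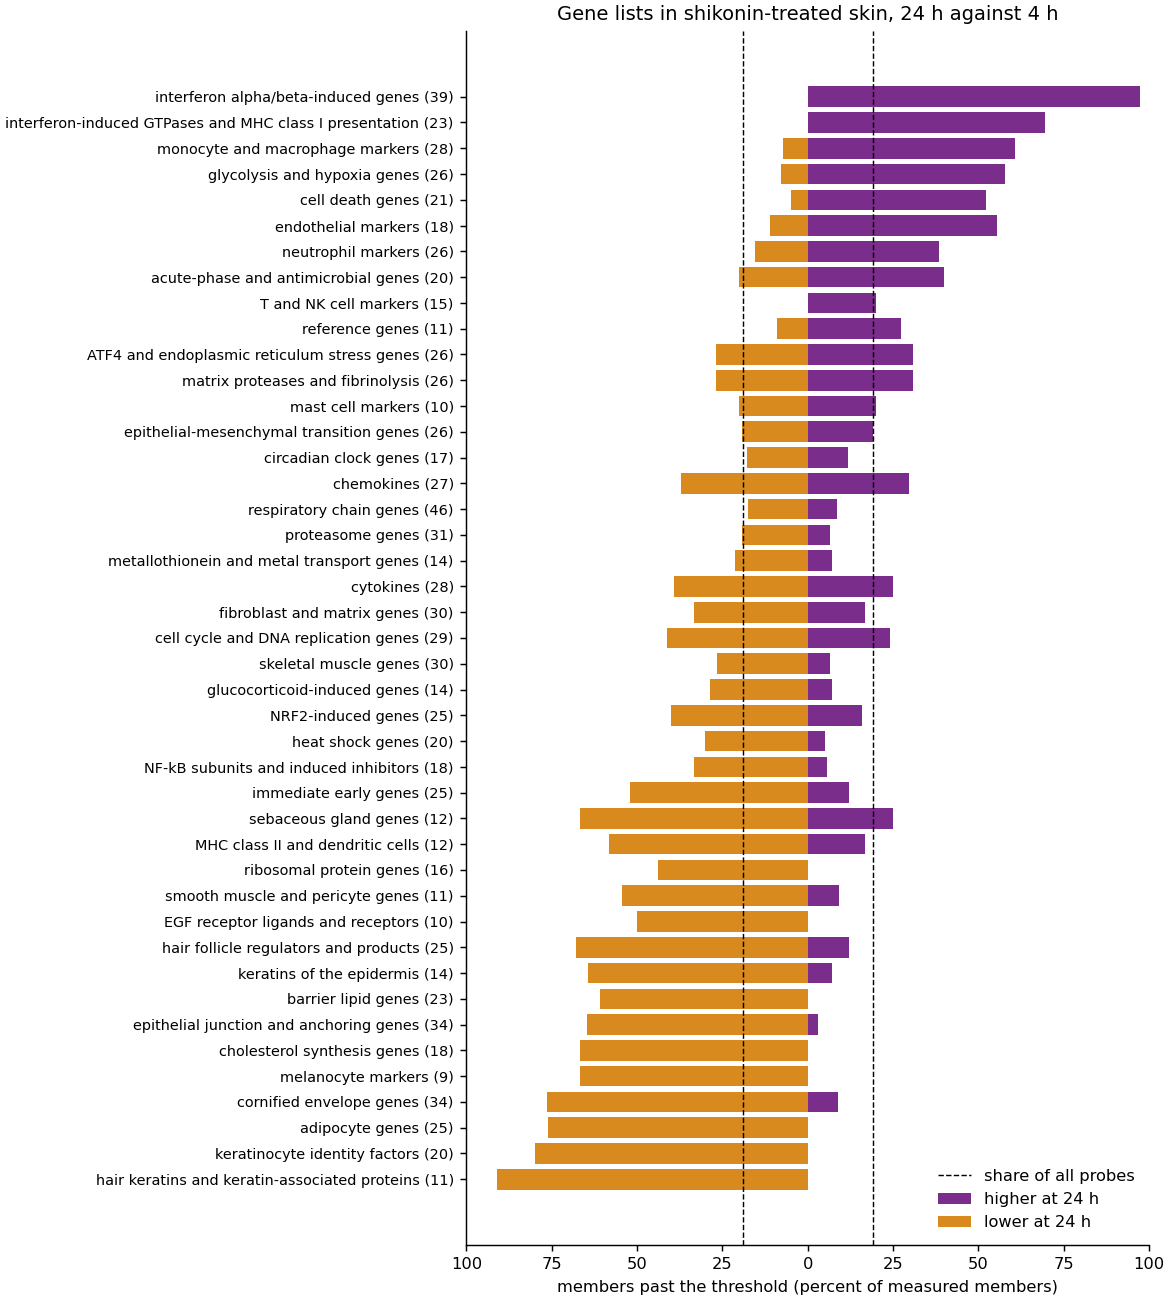
Share of measured members past the threshold (percent, horizontal axis), higher at 24 h to the right and lower to the left, for lists with at least 9 measured members (number in brackets). Dashed lines are the shares over all probes, 19.2% and 19.1%. Interferon lists stand at the top and hair keratins at the bottom.

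Chemokines, the secreted attractants of leukocytes, split. Of 27 measured, 8 were higher and 10 lower (median 0.00, acetone -1.55, with 17 lower and 0 higher in acetone). Cxcl10, which draws T cells and NK cells through CXCR3 and is induced by interferon, rose from 10.46 and 10.24 to 14.32 and 14.62 (17.4-fold, adjusted p = 0.00226), while in acetone it fell from 11.39 and 11.50 to 9.05 and 8.82. Cxcl9, a ligand of the same receptor, fell in shikonin-treated skin, from 11.67 and 11.77 to 9.80 and 9.77. In acetone Cxcl9 fell further (-2.93 beside -1.94 on the log2 scale), and the difference passed (adjusted p = 0.00305). Ppbp, the platelet and myeloid chemokine, rose 6.15-fold and was at the floor on all 4 acetone arrays. Cxcl12, made by stromal cells for CXCR4-bearing leukocytes, rose 3.28-fold. Of the neutrophil chemokines, Cxcl2 and Cxcl5 were at or near the top of the scale at both times. Cxcl2 was saturated on all 4 shikonin arrays, so that a change could not be measured, and Cxcl5 was at least 1.30-fold higher at 24 h. Cxcl3, another of them, also rose (adjusted p = 0.0182). The monocyte attractant Ccl2 was at least 1.81-fold lower, and the skin-homing attractants Ccl20 and Ccl17 fell, Ccl20 at least 6.16-fold to the floor and Ccl17 4.51-fold. Ccl2 fell in acetone too, with a log2 change of -2.78 beside -0.86 with shikonin, where saturation limits the size. Ccl20 also fell in acetone (-1.01 on the log2 scale), and Ccl17 did not pass there.

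Cytokines split in a like way, with 7 of 28 higher and 11 lower (median -0.13). Il27, made by activated myeloid cells, rose from 8.33 and 8.00 to 10.87 and 10.31, and Il15, which sustains NK cells, by 1.54. Il18, released by inflammasomes, rose from 11.21 and 11.10 to 13.26 and 13.54, which brought it from below its acetone range of 13.13 to 13.99 into it. Tnf rose by 1.29. Il1b, at 15.75 and 15.58 against 15.53 and 15.00, and Il6, at 12.33 and 11.47 against 11.55 and 11.88, did not pass, and the arrays of both times overlapped for Il6. The keratinocyte cytokines Il1f5 (the IL-36 receptor antagonist), Tslp and Il20 fell, with log2 changes of -1.92, -1.14 and -1.28.

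Early response genes were lower at the later time. Among 25 immediate early genes 13 fell and 3 rose (median -0.37, the same -0.37 in acetone). Fosb, a subunit of AP-1, fell from 10.47 and 10.28 to 8.28 and 8.36, and Egr2, a zinc finger factor, also fell (-1.62), whereas Atf3 and the phosphatase Dusp4 rose by 0.84 and 1.23. NF-kB subunits and the inhibitors they induce had 6 of 18 lower and 1 higher (median -0.47, acetone -0.42). Nfkb1 fell from 14.16 and 13.98 to 12.71 and 12.78, and Cflar, an inhibitor of caspase-8, was the one that rose (1.19). The kappa-B motif GGGANTTTC was in 0 of 5 promoters of the members that fell and 0 of 1 of the riser, and in 2 of 9 of those that did not pass, beside 1.29% of all genes.

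Marker genes of leukocytes moved by cell type. In bulk skin RNA, fewer cells of a type and less RNA per cell cannot be told apart. Of 28 monocyte and macrophage markers 17 were higher and 2 lower (median 0.68, acetone -0.57), and their summed intensity went from 408738 and 414153 to 561249 and 558814. Arg1, the arginase of wound macrophages, rose from 9.92 and 10.49 to 13.77 and 13.75, with 7.67 to 8.00 on the acetone arrays. Aif1 (IBA1), an actin-bundling protein of macrophages, rose from 10.04 and 10.14 to 13.32 and 13.50. Its acetone arrays fell from 12.41 and 12.34 to 10.97 and 11.41. The Fc receptor Fcgr1 rose from 9.43 and 9.82 to 12.67 and 12.62. The members that fell were Gpnmb (-1.04) and the resident macrophage and lymphatic receptor Lyve1 (-0.49). Lyve1 fell in acetone too, by 0.99, and the difference did not pass (adjusted p = 0.0797). Neutrophil markers had 10 of 26 higher and 4 lower (median 0.34, acetone -0.58). The proteins of secondary granules Ltf (lactoferrin) and Ngp rose by 2.41 and 1.89, Mpo, the peroxidase of primary granules, fell by 2.14, and S100a9 was at 14.65 and 14.66 against 14.70 and 14.88 without passing. On the acetone arrays Mpo was at 11.50 to 12.02, above its shikonin arrays of both times, whereas Ngp was at the floor on all 4. The sum of the neutrophil list was 437076 to 452391 at 4 h and 492651 to 503572 at 24 h, above the 43228 to 128334 of the acetone arrays at both times.

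Cells of the lymphoid and dendritic lines were sparsely measured. Of 15 T and NK cell markers 3 were higher (20%, near the 19.2% of all probes) and none lower. Their summed intensity was 17990 and 16958 at 4 h and 22358 and 20523 at 24 h, below the 25109 to 26186 of the acetone arrays. Klrk1 (NKG2D, an activating receptor of NK cells) rose most, from 8.87 and 9.20 to 11.97 and 12.04. Its second probe gave a rise of 3.14. Cd3e, a defining chain of the T cell receptor, was at 8.50 and 8.47 against 9.09 and 7.78, and Nkg7 and Cd5 were at the floor on all 4 arrays. Ms4a4b, a membrane protein of T cells that no list held, rose 10.1-fold. MHC class II and dendritic cell genes were lower in 7 of 12 and higher in 2 (median -0.92, acetone -0.12). Cd207 (langerin), the defining lectin of Langerhans cells, fell from 14.16 and 13.88 to 9.83 and 9.73 (18.9-fold), and stood at 13.15 to 13.50 on the acetone arrays. Ccr7, the receptor that mature dendritic cells and T cells use to reach lymph nodes, rose by 1.73. The rise of the monocyte and macrophage markers and that of the interferon-induced genes took place over the same interval, and the part of the one in the other was not tested.

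Only 3 genes were at the floor on both 4 h arrays and above the array median on both 24 h arrays, and they are named because they were few. Tnfsf10 (TRAIL), a death ligand, was at least 8.79-fold higher, with 10.85 and 10.76 at 24 h. On the acetone arrays it was at 9.67 to 9.98 throughout, so that the 4 h shikonin arrays were the low ones. C3ar1, the receptor for the complement fragment C3a, and Ddx19b, an RNA helicase, were at least 6.53-fold and 5.89-fold higher and lay near the floor in acetone. The reverse, above the median at 4 h and at the floor at 24 h, held for 32 genes. Most of those with the largest falls were genes of the hair follicle, which are described further on.

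**Figure D3:**
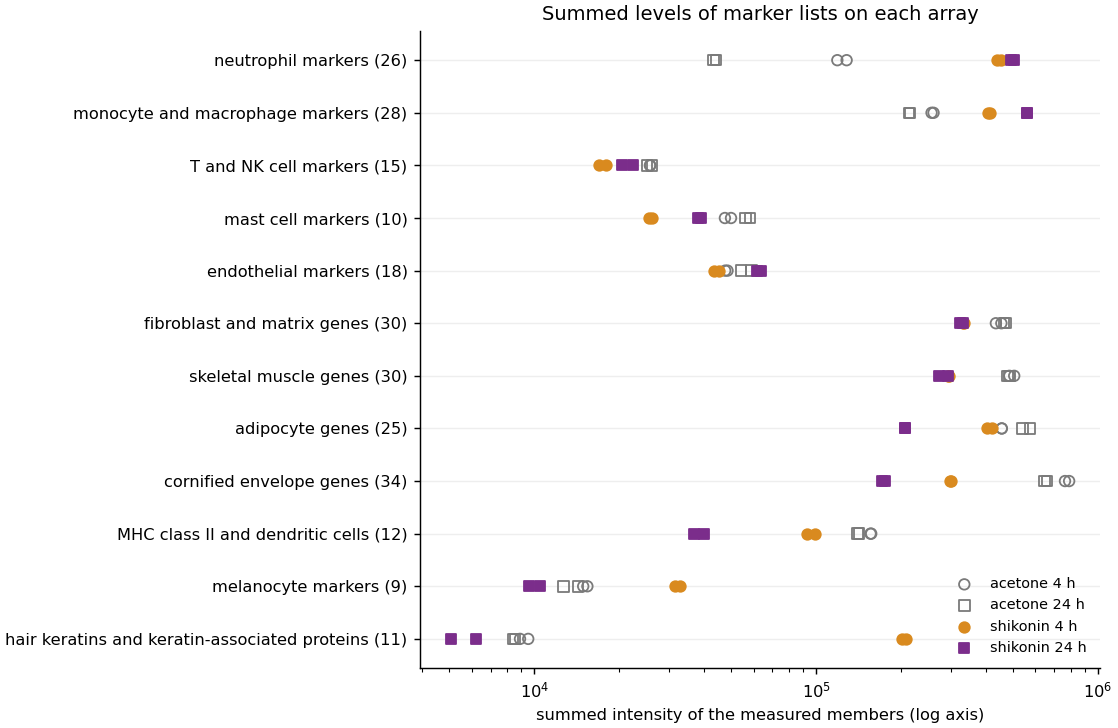
Summed intensity (horizontal axis, log scale) of the measured members of marker lists on each array, with the number of members in brackets. Filled circles are shikonin 4 h, filled squares shikonin 24 h, open symbols acetone. Hair keratins and melanocyte markers stand apart on the 4 h shikonin arrays.

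Hair follicle genes made the largest falls. Of 11 measured hair keratins (63 listed) 10 were lower at 24 h and none higher, beside 19.1% of all probes, with a median of -6.19 and an acetone median of 0.00. Krt71, a keratin of the inner root sheath, had 15.13 and 15.38 at 4 h and lay at the floor on both 24 h arrays, a fall of at least 192-fold (adjusted p = 0.00147). Its acetone arrays were at 9.20 and 9.40 at 4 h and 10.06 and 9.76 at 24 h. The 4 h shikonin arrays were thus high and the 24 h shikonin arrays low against a control that stayed between them. Krt26, Krt27, Krt73 and Krt25, of the same sheath, fell with log2 changes of -7.43, -7.36, -7.06 and -6.69, and Krt28 with -5.70, the 24 h arrays lying at the floor except for 1 array of Krt26 at 7.88. Krt33a, a keratin of the shaft, was at 13.77 and 13.94 at 4 h and at the floor at 24 h, and at 7.67 to 8.14 in acetone. Krt84, at 8.97 and 8.70 against 9.57 and 8.91, was the member that did not pass.

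The summed intensity of the hair keratins was 207665 and 201912 on the 4 h shikonin arrays, 6226 and 5071 at 24 h, and 8423 to 9522 on the 4 acetone arrays. Other products of the follicle moved with them. S100a3, of the hair cuticle, fell from 14.88 and 14.70 to 8.36 and 8.32, Prr9 from 15.91 and 15.67 to 10.30 and 9.90, and Crym, which binds thyroid hormone, from 14.54 and 13.92 to 7.71 and 8.09. Padi3, which citrullinates hair proteins, was at least 43.1-fold lower. The factor Hoxc13, which drives hair keratin genes, was at least 20.0-fold lower. Over the list of 25 regulators and products 17 fell and 3 rose (median -1.74, acetone 0.16). The risers were Fgf7, a dermal growth factor for keratinocytes (from 8.31 and 7.67 to 10.01 and 10.29), Ctsc (1.52) and Lhx2 (0.77).

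Pigment cell genes, which in mouse skin belong mostly to the follicle, behaved alike. Dct, an enzyme of melanin synthesis, fell from 12.91 and 13.00 to 7.67 and 7.75, with 10.94 to 11.28 on the acetone arrays, and its second probe fell by 2.45. Tyrp1, another melanin enzyme, fell from 13.35 and 13.32 to 8.57 and 8.72, with 11.73 to 12.24 in acetone. Of 9 melanocyte markers 6 fell and none rose (median -0.87, acetone -0.07), and the lineage factor Sox10 changed by -0.14 without passing. Idi2, an isopentenyl diphosphate isomerase, had the pattern of the hair keratins, with 15.09 and 15.39 at 4 h, the floor at 24 h and 8.24 to 9.28 in acetone. In each hair, pigment and Idi2 value given with its acetone arrays, both 4 h shikonin arrays were above all 4 acetone arrays, so the falls began from levels above the control.

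**Figure D4:**
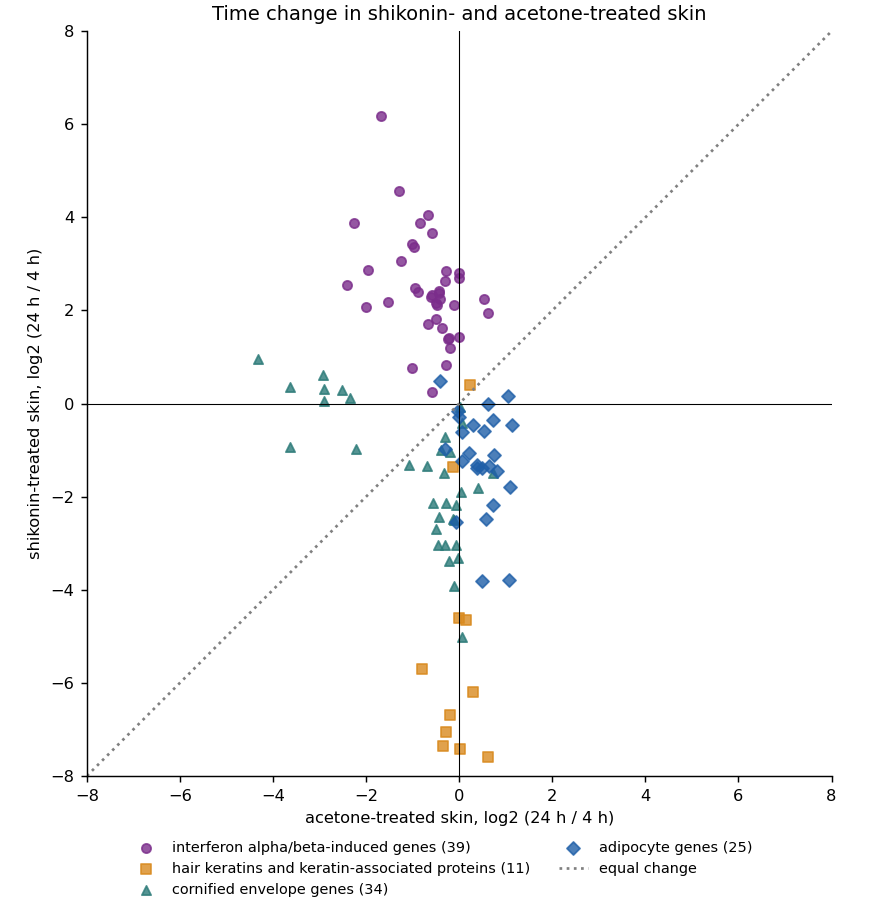
Change from 4 h to 24 h on the log2 scale in acetone-treated skin (horizontal axis) and shikonin-treated skin (vertical axis), each point a measured member of a list (number in brackets). The dotted line marks equal change. Interferon-induced genes lie upper left, hair keratins far below with little change in acetone.

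Cornified envelope genes fell from a summed level already below acetone. Of 34 cornified envelope genes 26 were lower and 3 higher (median -1.49, acetone -0.32), and the summed intensity went from 297918 and 300186 at 4 h to 175448 and 171674 at 24 h, against 645302 to 790407 in acetone. Lor (loricrin), the main envelope protein, was at 13.59 and 13.20 and then at 9.22 and 9.74, with 15.77 or more on the acetone arrays. Sprr4, a small proline-rich envelope protein, fell 32.1-fold, from 14.33 and 14.48 to 9.37 and 9.43, with no acetone change (0.06). Flg, the precursor of filaggrin, was at 9.45 and 9.68 and then at the floor, with 14.64 to 15.03 in acetone. The members that rose were Sprr2d, Sprr2e and Sprr2f, by 0.30, 0.62 and 0.95. In acetone Sprr2f fell from 12.33 and 12.28 to 7.98 on both arrays, so that the difference of its time changes was 5.28, among the 5 largest.

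Keratins of the epidermis fell in 9 of 14 and rose in 1 (median -1.26). Krt10, the keratin of the suprabasal layers, fell from 13.00 and 13.07 to 9.61 and 9.65 and was saturated on the acetone arrays. Krt15, of basal and follicle stem cells, fell from 13.20 and 12.73 to 8.14 and 8.26. Krt5, of the basal layer, fell by 1.45, its partner Krt14 was at 15.92 or above on all 4 arrays, and the stress keratins Krt16 and Krt17, at changes of -0.31 and -0.06, did not pass. Krt2 rose by 0.42 near the floor, and with a floor at the 25% level it had no change. Factors of keratinocyte identity were lower in 16 of 20 and higher in none (median -1.92, acetone 0.01). Trp63, the master factor of stratified epithelium, fell from 12.64 and 12.71 to 10.56 and 10.65, and Gata3 and Grhl1, which drive differentiation, had log2 changes of -3.33 and -3.19.

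Cell junctions and anchors followed, with 22 of 34 lower and 1 higher (median -1.20, acetone 0.02). The desmosomal proteins Dsg2 and Evpl (envoplakin) fell (-3.21 and -3.28 on the log2 scale), as did the second probe of each (-1.57 and -3.05). Lama3, a chain of the basement membrane laminin, was the riser, at 0.43. The ligands and receptors of the EGF pathway fell in 5 of 10 (median -0.99), with Hbegf, released by injured keratinocytes, from 13.03 and 13.25 to 11.55 and 11.36. For Hbegf the acetone arrays fell too, by 1.24, and the difference did not pass (adjusted p = 0.0871).

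The study asked about epithelial-mesenchymal transition, the loss of epithelial junctions and gain of mesenchymal proteins. It compared shikonin- with acetone-treated skin, using PCR, Western blots and staining besides arrays, which is a different contrast from 24 h against 4 h. Over a list of 26 measured genes drawn up here for the transition, 5 rose and 5 fell, close to the shares over all probes. Cdh1 (E-cadherin) fell from 13.85 and 13.60 to 12.32 and 12.78, a change of -1.17 (SE 0.20, adjusted p = 0.0186), beside -0.40 in acetone and a difference of -0.77. Zeb2, a repressor of Cdh1, rose from 11.58 and 11.72 to 12.42 and 12.45. In acetone it rose by 1.29, from 9.45 and 9.80 to 11.19 and 10.64, and the difference did not pass (adjusted p = 0.17). Of its other 2 probes 1 rose by 1.65 and the other, at 1.19, did not pass. Zeb1 was at 12.01 and 11.92 against 12.17 and 12.05 (adjusted p = 0.29). Vim (vimentin) was saturated on all arrays and gave no measurable change. S100a4 (FSP1) and Mmp9 rose by 0.64 and 0.41, and Mmp2, at 13.61 and 13.47 against 13.37 and 13.10, did not pass. S100a4 was at 14.19 and 14.44 and then at 14.99 and 14.93, below its acetone range of 15.07 to 15.42 at both times. Some genes of the list were included because the study names them.

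Vessel, matrix and muscle genes changed less evenly. Of 18 endothelial markers 10 rose and 2 fell (median 0.66, acetone 0.14). Kdr (VEGFR2), the receptor that drives vessel growth, rose from 9.29 and 9.07 to 11.84 and 11.97, with 9.72 to 10.03 in acetone. Tek (TIE2), the angiopoietin receptor, rose from 8.63 and 8.72 to 10.59 and 10.44, which brought it from below its acetone range of 10.35 to 10.64 into it. The adhesion molecules of inflamed endothelium Vcam1 and Sele fell (-0.73 and -0.60). Vcam1 fell as well in acetone, by 0.76, and the difference did not pass (adjusted p = 0.894), while Sele was at the floor on all 4 acetone arrays. Fibroblast and matrix genes had 5 of 30 higher and 10 lower (median -0.24). Mfap4, of elastic fibres, fell from 11.37 and 11.72 to 7.68 and 7.67, Col1a1, the collagen I chain, fell (-1.46), and Loxl1, which cross-links elastin, rose by 1.44. Loxl1 was below its acetone range of 13.97 to 14.48 at 4 h and within it at 24 h. Among 26 matrix proteases and fibrinolytic genes 8 rose and 7 fell (30.8% and 26.9%, beside 19.2% and 19.1% of all probes). The collagenase Mmp13 rose from 13.58 and 13.05 to 14.97 and 15.19 and the stromelysin Mmp10 rose by 1.98, while the inhibitors Timp3 and Timp4 fell (-2.36 and -1.94). Smooth muscle and pericyte genes fell in 6 of 11 and rose in 1, Pdgfrb, the pericyte receptor (2.04). Pdgfrb went from 10.75 and 10.72 to 12.82 and 12.72, from below its acetone range of 12.59 to 12.82 into it. Skeletal muscle genes, from the muscle sheet under mouse skin, fell in 8 of 30 (26.7%, beside 19.1% of all probes) and rose in 2 (median 0.02). Their sums were 272301 to 295014 on the 4 arrays.

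Lists of fat, sterol and barrier lipid genes had more members lower than higher. Adipocyte genes were lower in 19 of 25 and higher in none (median -1.10), whereas in acetone 14 rose and none fell (median 0.50). Elovl6 and Thrsp, of fatty acid synthesis, fell from 14.12 and 13.67 to 10.00 and 10.17 and from 11.56 and 11.81 to 8.00 and 7.79. Fasn, the fatty acid synthase, and Lep (leptin) fell (-2.49 and -2.55). Pparg, the master factor of fat cells, was at 9.71 and 10.12 against 9.96 and 9.86 and did not pass. Cholesterol synthesis genes fell in 12 of 18 and rose in none (median -0.94, acetone 0.39), Sqle, an enzyme under sterol control, and Lss among them (-1.85 and -1.96). Barrier lipid genes fell in 14 of 23 and rose in none (median -1.42, acetone 0.08). Fa2h, which hydroxylates ceramide fatty acids, was at 13.32 and 13.42 at 4 h and at the floor at 24 h, a fall of at least 52.2-fold, and between 13.71 and 14.53 in acetone. Acer1, the ceramidase of differentiating keratinocytes, fell 18.4-fold. Sebaceous gland genes fell in 8 of 12, Cidea (-3.17) and Scd3 (at least 7.33-fold) among them, and rose in 3, the lipid droplet protein Plin2 by 0.66 and Soat1, which esterifies sterols, by 0.63 among them.

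**Figure D5:**
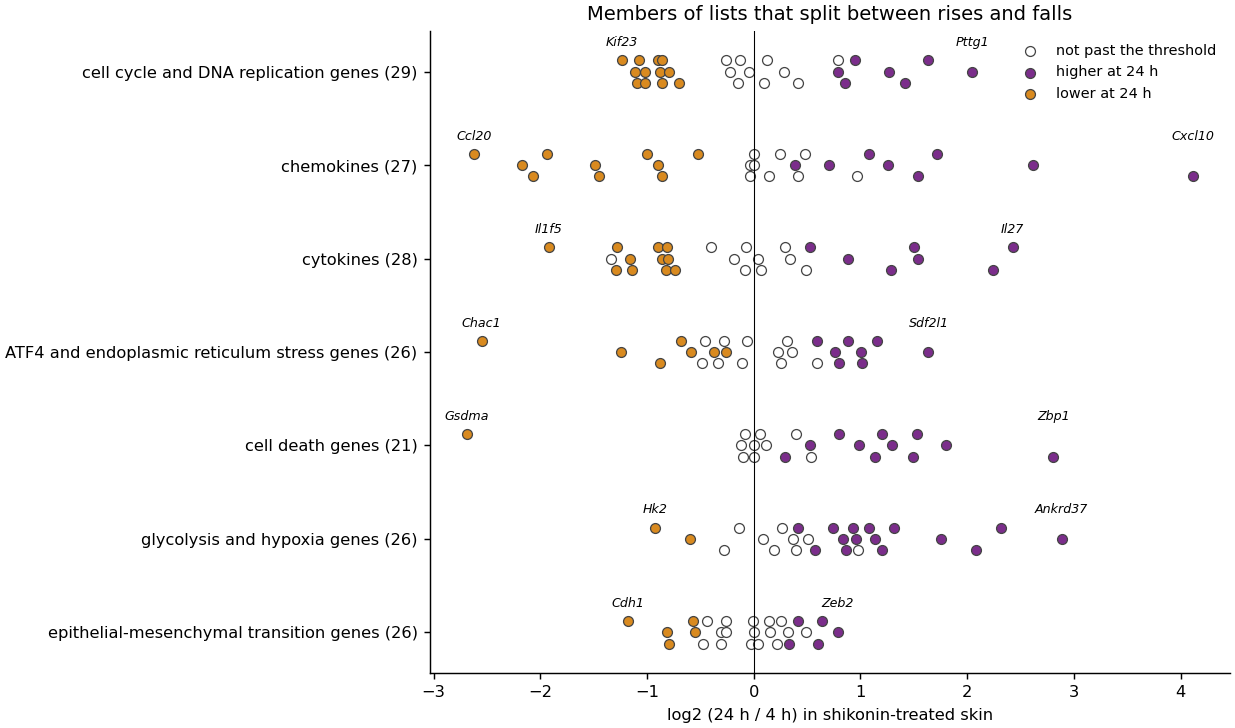
Log2 change from 4 h to 24 h in shikonin-treated skin (horizontal axis) of each measured member of 7 lists, with the number of members in brackets and the extreme members named. Filled points passed the threshold, open points did not. Chemokines reach from Ccl20 to Cxcl10.

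Energy and stress genes gave a mixed record. Glycolysis and hypoxia genes were higher in 15 of 26 and lower in 2 (median 0.79, acetone 0.01). Pfkl, a phosphofructokinase subunit, rose from 9.85 and 9.70 to 11.96 and 12.23, the HIF-induced Ankrd37 from 8.11 and 8.01 to 10.82 and 11.07, and Bnip3, of hypoxic mitophagy, by 2.09, while Hk2 fell by 0.93. Ankrd37 also rose in acetone, by 1.14, and its difference passed (adjusted p = 0.00127). Car4, a membrane carbonic anhydrase, rose 9.62-fold and fell by 1.05 in acetone.

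Genes of NRF2, the factor that answers electrophiles such as quinones, were lower in 10 of 25 and higher in 4 (median -0.33). Hmox1 (heme oxygenase) fell from 15.70 on both arrays to 14.50 and 14.36 and stayed above the acetone arrays, at 11.68 to 12.34, while Gsr and Osgin1 rose by 1.27 and 1.56. The antioxidant response element TGACNNNGC was in 4 of 8 promoters of the NRF2 members that fell and in 0 of 3 of those that rose, and in 4 of 10 of those that did not pass, beside 16.8% of the measured genes. Heat shock genes fell in 6 of 20 (30%, beside 19.1% of all probes) and rose in 1. The ATF4 and endoplasmic reticulum list had 8 of 26 higher and 7 lower (30.8% and 26.9%, beside 19.2% and 19.1% of all probes). Chac1, a glutathione-degrading target of ATF4, fell from 13.66 and 13.72 to 11.15 and 11.12, with Psat1 and Asns, of amino acid synthesis, also lower (-0.88 and -0.68), whereas the chaperone genes Sdf2l1 and Pdia6 rose by 1.64 and 0.88 and the death factor Ddit3 by 1.16.

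The cell cycle list had 7 of 29 higher and 12 lower (median -0.15). The risers Mcm4, Mcm5, Mcm6, Cdc6, Cdt1 and Pcna belong to the licensing and copying of DNA, while Pttg1 (securin), the largest riser of the list at 2.05, is a gene of mitosis. Mcm6 rose from 9.82 and 9.89 to 11.34 and 11.64, and Pcna from 13.67 and 13.37 to 14.33 and 14.42. On the acetone arrays Mcm6 was at 10.98 to 11.54, so that its 4 h shikonin arrays were the low ones. Among those that fell were the mitotic genes Kif23 (-1.23), Ube2c (-1.11), Ccnb2 (-1.07) and Cdc20 (-1.02), with the proliferation marker Mki67 from 9.59 and 9.80 to 8.73 and 8.47. These roles were set beside the genes after the values were seen, and no list of a phase was counted. Cell death genes were higher in 11 of 21 and lower in 1 (median 0.53, acetone -0.04). Zbp1, a nucleic acid sensor of necroptosis that the interferon list also holds, rose from 7.90 and 8.40 to 11.01 and 10.90, Mlkl, the necroptosis effector, by 1.80, Casp8 by 1.29 and the pore former Gsdmd by 1.14. Gsdma, the gasdermin of differentiating keratinocytes, fell by 2.69.

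Among 11 reference genes 3 rose, Pgk1 (0.83), Sdha (0.94) and Gusb (1.17), and Eef2 fell (-0.69), with a list median of 0.26. Hprt, Tbp, Polr2a, Tfrc, Ywhaz and Rplp0 changed by -0.16 to 0.37 and did not pass, nor did B2m, at 1.40 (adjusted p = 0.0629), the largest change of the list. The remaining leading riser, Dydc2, went from 9.67 and 9.51 to 13.29 and 13.11, and from 9.16 on both arrays to 8.58 and 8.59 in acetone.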

How the data were processed

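Total RNA of abdominal mouse skin was amplified, labelled with Cy5 and hybridized by the authors to the Mouse OneArray, and spots were read with GenePix. The authors deposited 1 linear intensity for each probe on each array. Matching distributions point to normalization between arrays. Neither its method nor the background correction, nor why 16069 probes are blank, was given in the sources used here. All arrays were kept, and precision is limited by 2 arrays per group. Symbols of 9712 probes were current, 1814 were updated and 24 kept as given.

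Intensities were raised to the 5% level (203) before taking log2, and a gene was represented by its probe of highest mean on the 4 shikonin arrays. Of 1379 genes with several probes, 13 had probes called in opposite directions. Shikonin 24 h over 4 h was tested with limma 3.58.1 under R 4.3.3 (lmFit, eBayes with an intensity trend) on 4 arrays, with 2 residual and 1.94 prior degrees of freedom. The acetone change and the difference of the time changes came from a fit of all 8. P-values were adjusted over 13853 probes (Benjamini-Hochberg), with a threshold of 0.05. Simulated data with 100 probes changed 2-fold and 100 changed 4-fold gave 36 and 86 calls, and 6 among 13653 unchanged probes.

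Named genes were the 14 largest rises and falls that passed and moved alike in all 4 pairings, the 5 largest differences each way, up to 2 extremes each way of each of 46 lists, the genes the study names and reference genes. Others are named as list members. Genes and lists were chosen with earlier results of these data known, and lists were counted, not tested. Alternatives covered normalization, floor, filter, trend, replicate block, left-out arrays and averaging of probes.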

Additional observations from a re-analysis of the deposited data

Results flagged for a closer look

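The change from 4 h to 24 h differed between shikonin- and acetone-treated skin for 5999 of 13853 probes (limma interaction, adjusted p under 0.05). Of the 36 genes that led the comparison or that the study names, 32 differed. All but those the study names were picked by the size of their change or difference in these data. The largest differences were taken among genes that had passed, so this count is not a test. The values that follow are the time change in shikonin-treated skin minus that in acetone-treated skin, on the log2 scale.

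Interferon-induced genes had positive differences, with Ifit2 at 7.86, Cxcl10 at 6.63, Ifi44 at 6.14, Ifit3 at 5.85, Cmpk2 and Usp18 at 4.71 each, Mx2 at 4.44, Phf11d at 4.34 and Mx1 at 4.25. All of these had a negative change in acetone-treated skin over the same interval. The macrophage genes Aif1 (4.51) and Arg1 (3.28), the T cell gene Ms4a4b (4.49), and Car4 (4.31), Dydc2 (4.18) and Sprr2f (5.28) were positive as well. For Sprr2f most of the difference lay in acetone-treated skin, where it fell by 4.32.

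Most of the negative differences were of hair follicle and pigment genes. The keratins stood at -8.20 (Krt71), -7.45 (Krt26), -7.02 (Krt27), -6.77 (Krt73), -6.49 (Krt25 and Krt33a) and -4.90 (Krt28). Idi2 was at -8.57, S100a3 at -7.01, the barrier lipid gene Fa2h at -6.46, Crym at -5.92, Prr9 at -5.85, Dct at -5.37 and Padi3 at -5.20. For several of them the 24 h shikonin arrays lay at the floor, so these sizes are limited by it.

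Among the genes the study names, the differences were -0.77 for Cdh1, 0.89 for Mmp9 and 0.46 for S100a4. Those of Zeb1, Zeb2, Mmp2 and Vim did not pass. Groups of 2 arrays are too small to look for an outlying array within a group.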

How the results depend on the processing

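The counts of 2658 higher and 2652 lower probes became 1677 and 1742 with a floor at the 25% level, and 747 and 927 by the 2-fold criterion without a p-value. Leaving out the dimmer 50% of probes, which tests fewer of them, gave 1736 lower, and 1685 positive and 1824 negative for the difference of the time changes (main 2928 and 3071). Leaving out 1 array gave 0 to 1056 higher and 0 to 1574 lower in the fit of 4 arrays, with 0 without either 24 h array. With all 8 arrays in the fit, chosen after seeing the data, it gave 2396 to 2883 and 2408 to 3119, a single remaining array being assumed to vary like the others. The difference gave 2109 to 2838 positive and 2320 to 3190 negative without 1 array.

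Replicate numbers are shared between times but name no common animal. Same-numbered arrays deviated from their group means with a correlation of -0.21. The replicate block gave 1810 higher and 1864 lower probes, and 2926 and 2972 for the difference. A block with crossed numbers, chosen after seeing the data, gave 2849 and 2732.

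Of 164 named genes that passed, 0 reversed under any alternative, and the 120 left by the filter on dim probes kept their calls. The leading genes had been chosen to move alike in all 4 pairings, so that leaving out 1 array could not reverse them. Fits that lost calls were those without a 24 h array (164 each), without a 4 h array (45 and 52), the 25% floor (25), the block (19), and the 1% floor and no trend (1 each). With all 8 arrays, 5 to 11 were lost when 1 shikonin array was left out.

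The median change of a list moved by more than the SD between replicate arrays for 21 of 45 lists without the dimmer 50% of probes, 19 of 46 with the 25% floor, 7 each with the 1% floor and with probes averaged, 4 with cyclic loess, and 11 to 24 when 1 array was left out. It changed sign under an alternative for 0 of the 20 lists with a median of at least 0.5 in size on the log2 scale and for 5 of the other 26.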

Other observations

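Gene groups not described above are given here for shikonin-treated skin between 4 h and 24 h. Over all probes 19.2% were higher and 19.1% lower. Clock genes, which follow the hour of the day, had 2 of 17 higher and 3 lower (median -0.12), whereas in acetone-treated skin 9 rose and 3 fell (median 0.44). Per2, a repressor of the clock, was at 12.11 and 12.33 at 4 h and 12.15 and 12.07 at 24 h with shikonin, and went from 12.95 and 13.02 to 14.02 and 13.89 with acetone, a difference that passed (adjusted p = 0.000589). Nr1d1, another repressor, had a difference of -1.10 (adjusted p = 0.00142). Dbp, an output gene, rose in both, by 1.18 and 1.40. The E-box CACGTG was in 0 of 2 promoters of the clock genes that fell and 0 of 1 of those that rose, and in 2 of 10 of those that did not pass, beside 8.09% of all genes and 11.8% of the measured ones.

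Genes of the aryl hydrocarbon receptor had 2 of 6 higher and 2 lower, with Cyp1b1 from 12.71 and 12.52 to 14.42 and 14.43 and Cyp1a1 at least 1.63-fold lower. Acute-phase and antimicrobial genes were higher in 8 of 20 (40%) and lower in 4 (20%). The complement factor Cfb rose from 13.00 and 12.57 to 14.46 and 14.75 and Saa3 by 1.53, while the defensin Defb6 fell from 13.99 and 13.90 to 11.63 and 11.71. Metal transport genes had 1 of 14 higher and 3 lower, the zinc importer Slc39a8 falling by 2.60. Glucocorticoid-induced genes had 1 of 14 higher and 4 lower. Respiratory chain genes (4 of 46 higher, 8 lower), proteasome genes (2 of 31 and 6) and ribosomal protein genes (0 of 16 and 7) had medians of -0.00, -0.11 and -0.12. Mast cell markers had 2 of 10 higher and 2 lower, B cell markers 0 of 3 higher and 1 lower, and red cell and platelet markers 1 of 4 higher, Pf4 from 14.49 and 14.64 to 15.90 and 15.84, and 1 lower.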
